A study of Drosophila melanogaster with 18 samples.

Results

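The comparison asks which genes responded differently to 2 transcription factors, Zelda (Zld) and Grainy head (Grh), switched on in the same Drosophila S2 cell line. It is the change on induction in the Zld line minus the change on induction in the Grh line, on the log2 scale, and it uses 8 of the 18 libraries of the series. The 4 groups of 2 libraries were S2-Zld cells without added copper sulphate, S2-Zld cells at a copper label of 1000, S2-Grh cells without added copper sulphate and S2-Grh cells at a copper label of 100. Copper sulphate switched the factors on, cells were harvested 48 h later, and polyadenylated RNA was sequenced. The labels print the copper unit as mM for the Zld and Grh lines and as uM for wild-type S2 cells, so doses were matched by the printed number. The lines are called S2-Zld and S2-Grh in the labels, which name neither the promoter nor the clones and do not say whether replicates were separate cultures. If they were not, the p-values cover only the spread between these libraries. Because the copper numbers differ between the lines, the factor and the dose cannot be told apart in the 8 libraries alone. For that reason the 4 wild-type libraries at copper labels of 1000 and 100 were used to subtract the dose difference, giving the copper-adjusted difference. That subtraction assumes that the lines respond to copper as wild-type cells do, which was not tested.

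Zld is a zinc-finger pioneer factor, deposited in the egg, that opens chromatin at enhancers and promoters and starts zygotic transcription in the early embryo. Grh is a pioneer factor of a different protein family that controls epithelial genes, the cuticle, the epidermal barrier and the response to wounding. S2 cells come from late embryos and resemble macrophages, a cell type in which neither programme normally runs.

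The 8 libraries held 10459648 to 21045253 counted reads, so 3 counts, taken here as the limit of detection, corresponded to 0.143 to 0.287 CPM, where CPM are counts per 1000000 counted reads. Markers of the labelled cell type were present in every library: Hml, a haemocyte clotting protein, lay between 19.1 and 134 CPM, and the GATA factor gene srp between 320 and 511 CPM. The summed level of 6 macrophage markers was 2938 to 3079 CPM in uninduced Zld cells, 1502 to 1842 in induced Zld cells, 2218 to 2569 in uninduced Grh cells and 2443 to 2494 in induced Grh cells. Most of that sum is Pxn. In the Grh line the other 5 markers were lower after induction: Hml was at 35 and 38.9 CPM before and 19.1 and 22.3 CPM after it, eater at 15.1 and 15.2 against 5.88 and 6.88 CPM, Sr-CI at 15.4 and 20.7 against 6.13 and 9.14 CPM, NimC1 at 0.809 and 0.855 against 0.346 and 0.481 CPM, and srp at 399 and 426 against 345 and 365 CPM (lower and higher library of each group). The 3 epithelial markers crb, shg and Fas3 summed to 45.2 to 65.9 CPM in the other groups and to 93.6 to 106 CPM in induced Grh cells. The higher sum came from crb and Fas3. shg was at 21.6 to 24.4 CPM in uninduced and 21.7 to 25.7 CPM in induced Grh cells, and at 29.9 to 32.7 CPM in induced Zld cells. Both fat body markers together stayed at or below 0.309 CPM and the 3 germline markers at or below 5.62 CPM. In bulk RNA, fewer cells of a type and less RNA per cell cannot be told apart.

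The introduced genes followed the labels. The zld transcript was at 214 and 306 CPM in uninduced Zld cells and at 5503 and 5211 CPM in induced ones. Grh cells held 10.1 and 14.5 CPM of zld when uninduced and 10.7 and 0.688 CPM when induced, so the Zld line carried more zld than the Grh line before copper was added. Induction raised zld by 4.37 ± 0.60 log2 units (SE, adjusted p = 0.00432), and the difference between the lines was 5.32 ± 1.01 (adjusted p = 0.0211). For grh, Zld cells held 2.01 and 0.119 CPM uninduced and 0.864 and 1.03 CPM induced. Uninduced Grh cells held 44.5 and 36.2 CPM and induced Grh cells 1014 and 985 CPM, so this line also expressed its gene before induction, at a level above every Zld library. The Grh line raised grh by 4.66 ± 0.24 log2 units (adjusted p = 2.2e-05), and 19.1% of the gene's exon length overlaps other genes. The difference for grh was -4.51 ± 1.17 (adjusted p = 0.0351). It rests on few reads in the Zld line: it was -1.78 without Zld uninduced replicate 1, and 6 of the 8 leave-1-out fits gave an adjusted p between 0.0564 and 0.405. The difference for zld missed the threshold in 5 such fits, at an adjusted p of 0.0625 to 0.123, and reached 8.50 without Grh induced replicate 1.

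Of 8945 genes tested, 2316 (25.9%) passed an adjusted p of 0.05 for the difference between the effects. The Zld effect was above the Grh effect for 1006 genes (11.2%) and below it for 1310 (14.6%), and the median difference over all genes was -0.04. At a difference of at least 2-fold the counts were 424 genes (4.74%) on the Zld side and 374 (4.18%) on the Grh side, together 798 (8.92%). Induction changed 3830 genes (42.8%) in the Zld line and 1615 (18.1%) in the Grh line. In the Zld line 1896 genes (21.2%) rose and 1934 (21.6%) fell on induction, and in the Grh line 1103 (12.3%) rose and 512 (5.72%) fell. Rises of at least 2-fold numbered 972 (10.9%) in the Zld line and 566 (6.33%) in the Grh line, and falls of that size numbered 155 (1.73%) and 25 (0.279%), so that 1127 genes (12.6%) and 591 (6.61%) moved that far. The 2 effects, which share no library, correlated weakly over the 8945 genes (Pearson r = 0.34, Spearman rho = 0.25), a description across genes that are not independent. The number of genes called for the difference dropped to 1440 without Grh uninduced replicate 2 and to 1497 without Zld induced replicate 1. In the Zld line 2455 genes were called without Zld induced replicate 1, and in the Grh line 897 without Grh uninduced replicate 2 and 1038 without either Grh induced replicate 1 or Grh uninduced replicate 1.

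**Figure D1:**
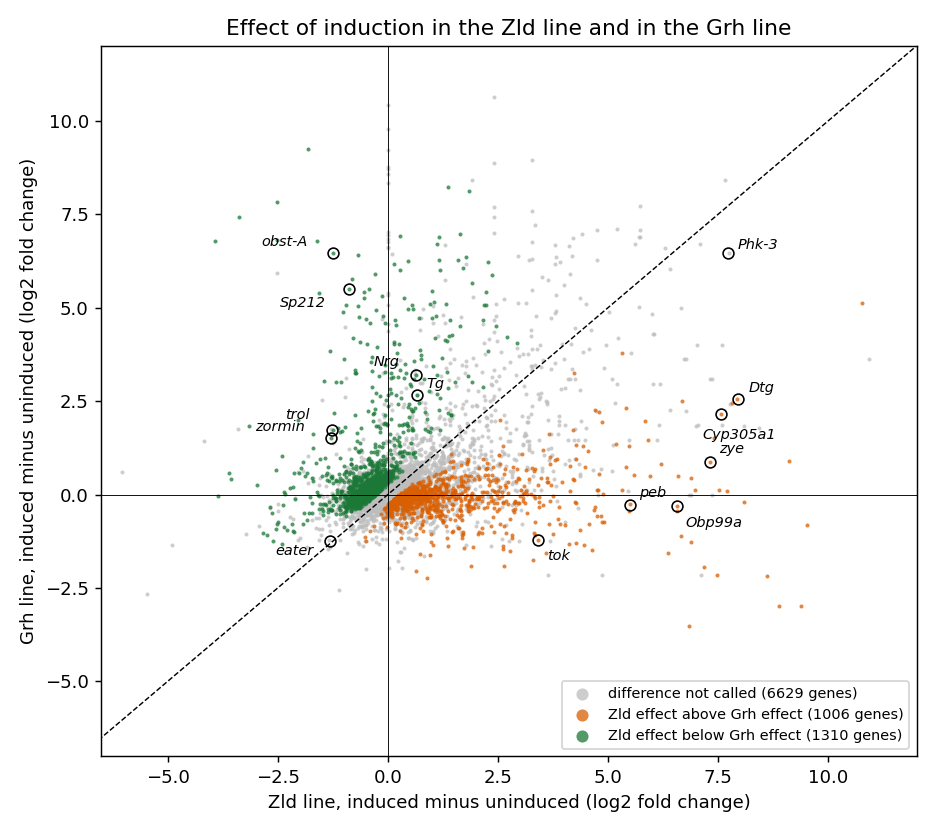
Each point is 1 of the 8945 genes, with its log2 change on induction in the Zld line on the horizontal axis and in the Grh line on the vertical axis; the dashed line marks equal effects, and colours mark the 1006 genes with a higher and the 1310 with a lower Zld effect at an adjusted p under 0.05. Ringed genes are described in the text, and the vertical rows of grey points are genes with 0 or very few counts in the Zld line.

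Besides zld itself, the genes most raised by Zld relative to Grh stood below 4 CPM in uninduced Zld cells. zye, which encodes a zona pellucida domain protein (chromosome 3L, 20413604 to 20424309, dm6), was at 2.77 and 3.68 CPM in uninduced Zld cells and at 543 and 508 CPM in induced ones. In the Grh line it was at 1.24 and 0.428 CPM uninduced and 1.38 and 1.44 CPM induced. Both induced Zld libraries thus lay above all 6 others, and the difference was 6.44 ± 0.57 log2 units (adjusted p = 1.74e-05). Obp99a, an odorant-binding protein gene (chromosome 3R, 29671657 to 29672334), went from 1.63 and 1.42 to 129 and 156 CPM in the Zld line. It stayed between 0.249 and 0.903 CPM in all 4 Grh libraries, and its difference was 6.87 ± 0.69 (adjusted p = 2.5e-05). Cyp305a1, a cytochrome P450 gene, rose from 0 and 0.356 to 43.6 and 41.3 CPM in the Zld line. It also rose, to a lower level, in the Grh line, from 0.373 and 0.285 to 1.53 and 1.31 CPM (Grh effect 2.15 ± 0.45, adjusted p = 0.004). Its difference of 5.40 ± 0.82 (adjusted p = 0.000439) became 10.24 without Zld uninduced replicate 2, the only uninduced Zld library that held reads of it.

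For 4 more of these genes the uninduced Zld libraries held 3 counts or fewer in all, so that only a ratio with its 95% counting interval or a lower bound can be given. sisA, an X-linked numerator of the sex-determination signal and an early zygotic gene, was at 0.191 and 0.0593 CPM uninduced and 9.14 and 10.2 CPM induced, a ratio of 87.7 (29.7 to 428). Its Grh libraries ranged from 0 to 0.238 CPM, and the test of the difference gave an adjusted p of 0.000383. Jhbp2, annotated as a juvenile hormone binding protein gene, had no read in either uninduced Zld library and 5.86 and 5.52 CPM after induction, at least 52.0-fold higher (adjusted p of the difference 0.000284). CG13872 likewise had no read and then 6.11 and 4.19 CPM, at least 47.7-fold higher (adjusted p = 0.00573). CG43085 went from 0.191 and 0.0593 to 14.9 and 14.5 CPM, a ratio of 134 (45.6 to 653), against 0.346 to 0.481 CPM in the Grh libraries (adjusted p = 2.41e-05).

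Of the 10 genes highest on the Zld side, Amy-p, GstD6, CG43085, zye and Obp99a were also higher at the copper label of 1000 than at 100 in wild-type cells. Amy-p is an amylase gene with a near-identical neighbouring copy, and whether reads of the copies were told apart was not tested. It rose from 0 and 0.415 to 27.7 and 21.9 CPM in the Zld line and stayed at or below 0.206 CPM in the Grh line. Its difference was 7.01 ± 1.44 (adjusted p = 0.00407), or 12.06 without Zld uninduced replicate 2, and its copper-adjusted test gave an adjusted p of 0.505, with a mean of 0.097 CPM at the copper label of 100 and 2.99 CPM at 1000 in wild-type cells. The glutathione transferase gene GstD6 rose from 0.478 and 0.356 to 56.7 and 39.9 CPM in the Zld line and lay between 0.249 and 0.619 CPM in the Grh line. Wild-type cells at the copper label of 1000 exceeded those at 100 by 4.63 log2 units for GstD6, and its difference of 6.45 ± 1.01 (adjusted p = 0.000723) became 1.80 (adjusted p = 0.186) after copper adjustment. The wild-type dose change was 1.79 for zye (adjusted p = 6.35e-05) and 1.49 for Obp99a (adjusted p = 0.00697). Their copper-adjusted differences were 4.63 (adjusted p = 1.39e-05) and 5.36 (adjusted p = 7.4e-05). CG43085 passed the dose test with an adjusted p of 8.17e-05 and the copper-adjusted test with 0.00884, or 0.112 without wild-type 100 replicate 1. Cyp305a1 had a copper-adjusted difference of 4.33 (adjusted p = 0.00298), which missed the threshold without wild-type 100 replicate 2 (adjusted p = 0.0522) and was 9.33 without Zld uninduced replicate 2.

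The genes most raised by Grh relative to Zld included structural and modifying proteins of the cuticle. Cpr76Bc, a chitin-binding cuticle protein gene (chromosome 3L, 19520945 to 19527272), was at 0.124 and 0 CPM in uninduced Grh cells and at 37.5 and 35.9 CPM in induced ones, a ratio of 683 (189 to 5650). Its 4 Zld libraries ranged from 0 to 0.478 CPM, and the difference passed with an adjusted p of 0.000274. obst-A, a secreted chitin-binding protein of the cuticle (chromosome X, 20239855 to 20243209), rose from 0.311 and 0.428 to 37.6 and 28.0 CPM in the Grh line. In the Zld line it was at 0.382 and 0.297 CPM uninduced and 0.123 and 0.147 CPM induced, so induced Grh cells stood alone. Its difference was -7.69 ± 1.03 log2 units (adjusted p = 0.000171). Sp212, a serine protease gene, rose from 1.49 and 0.903 to 52.6 and 50.7 CPM in the Grh line and stayed between 0.0735 and 0.297 CPM in the Zld line (difference -6.38 ± 0.96, adjusted p = 0.000406). The same pattern held for CG32055, at 0.56 and 0.38 CPM before and 25.9 and 28.7 CPM after Grh induction and at most 0.297 CPM in Zld cells (difference -6.20 ± 0.77, adjusted p = 9.14e-05). CG9427 rose from 0.809 and 0.333 to 43.0 and 39.1 CPM in the Grh line, against 0.123 to 0.515 CPM in the Zld line (difference -5.80 ± 1.17, adjusted p = 0.00341).

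The other 5 genes lowest in the difference were also raised in the Grh line from near 0. CG9452, which lies close to Cpr76Bc on chromosome 3L (19501010 to 19503870), rose from 0.0622 and 0.19 to 16.9 and 13.6 CPM (adjusted p of the difference 0.000471), and CG13841 from 0.124 and 0.0475 to 9.93 and 9.01 CPM (adjusted p = 0.0011). For CG7896 (adjusted p = 0.00669), ldd (-7.09 ± 1.25, adjusted p = 0.00126) and CG31769 (-6.04 ± 1.04, adjusted p = 0.00111) the call rests on sparse reads in uninduced Zld cells. Without Zld uninduced replicate 1 the adjusted p was 0.0856 for CG7896 and 0.0806 for ldd, and without Zld uninduced replicate 2 it was 0.0843 for CG31769. In the Grh line itself the same 3 genes rose, CG7896 to 20.0 and 20.1 CPM, ldd to 12.2 and 11.3 CPM and CG31769 to 57.4 and 58.6 CPM.

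**Figure D2:**
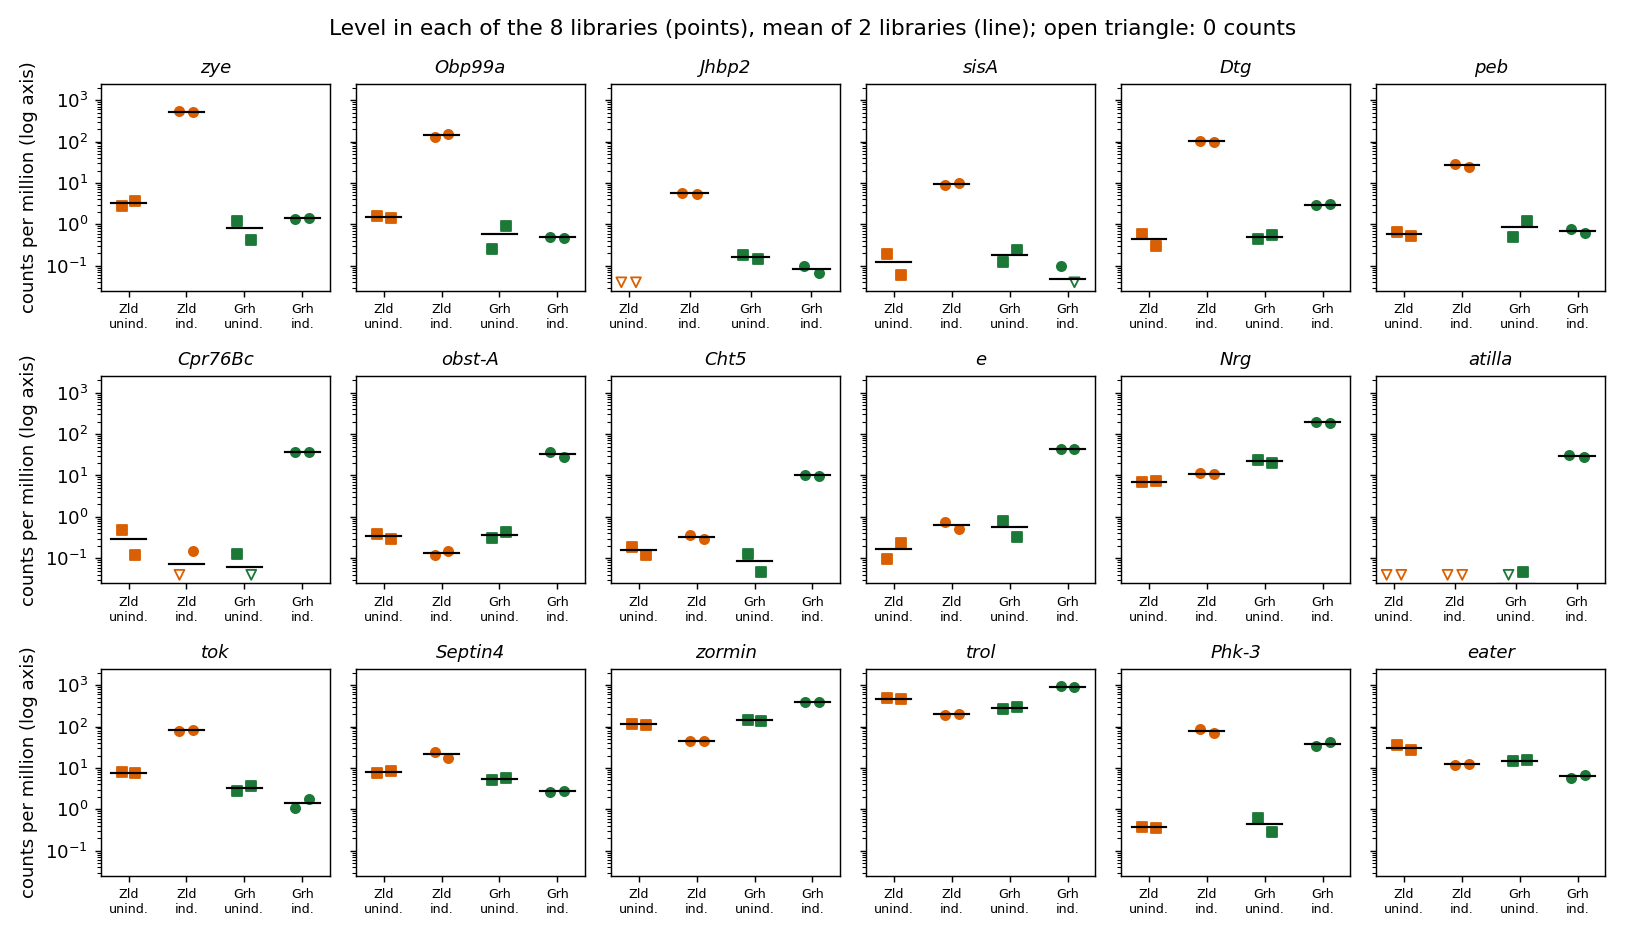
Level of 18 genes in CPM (log axis) in each of the 8 libraries, with orange for the Zld line, green for the Grh line, squares for uninduced and circles for induced cells, a line at the mean of 2 libraries and an open triangle for 0 counts. In the upper row the induced Zld libraries stand highest, as for zye at 543 and 508 CPM, and in the middle row the induced Grh libraries do, as for obst-A at 37.6 and 28.0 CPM; the lower row holds genes moving in opposite or in the same directions.

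For some genes 1 line held no read at all, so its change, and with it the difference, has no usable estimate. Their fitted difference had an adjusted p of 1, and they stay in the counts of genes tested and in the list medians. There were 18 genes called in the Grh line with 0 counts in all 4 Zld libraries, and 4 called in the Zld line with 0 counts in all 4 Grh libraries. atilla, the surface protein that marks lamellocytes (chromosome 2L, 12175451 to 12177886), had 0 counts in every Zld library, 1 count in uninduced Grh cells and 31.7 and 28.1 CPM in induced Grh cells, a ratio of 1119 (200 to 44255). The cuticle protein gene Cpr49Af rose in the same way to 15.5 and 12.7 CPM, a ratio of 531 (94.9 to 21031). obst-B, a relative of obst-A, had no read until Grh was induced and then 2.82 and 2.06 CPM, at least 30.9-fold higher. The larval cuticle protein gene Lcp4 reached 3.41 and 3.16 CPM from no read, at least 40.9-fold higher. Hayan and psh, neighbouring serine protease genes of the melanisation and Toll cascades, rose to 1.19 and 1.31 CPM and to 3.06 and 3.99 CPM. Exons of other genes overlap 36.2% of Hayan. On the Zld side the genes were Ir7g, CG42823, CG42824 and CG18417, and none passed 1.76 CPM. Names outside the naming rule, Lcp4, psh and these 4, were chosen after their values were seen.

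In 232 genes (2.59%) both lines changed, in opposite directions, and the difference was called. Of these, 66 (0.738%) rose with Zld and fell with Grh, and 166 (1.86%) fell with Zld and rose with Grh. The count was 111 without Grh uninduced replicate 2, 137 without Grh induced replicate 1, 148 without Grh uninduced replicate 1 and 150 without Grh induced replicate 2. tok, a tolloid-family protease gene (chromosome 3R, 24719697 to 24749125), rose from 7.94 and 7.59 to 78.7 and 84.0 CPM with Zld and fell from 2.86 and 3.61 to 1.09 and 1.79 CPM with Grh. Its effects were 3.40 ± 0.12 and -1.21 ± 0.23, and the difference was 4.61 ± 0.26 (adjusted p = 1.77e-07). Septin4, a gene of the septin filament family, rose from 7.36 and 8.25 to 24.8 and 17.9 CPM with Zld and fell from 5.17 and 5.80 to 2.67 and 2.75 CPM with Grh (difference 2.45 ± 0.28, adjusted p = 5.21e-05). For CG1998 the difference was 2.73 ± 0.36 (adjusted p = 0.000158) and for phu, an alkaline-phosphatase-like gene, it was 2.38 ± 0.28 (adjusted p = 6.4e-05). Ama, an immunoglobulin-domain adhesion gene, belonged to the same group at 2.79 ± 0.26 (adjusted p = 1.27e-05). After copper adjustment Ama stood at -0.67 (adjusted p = 0.0788), with a wild-type copper dose change of 3.43.

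trol, the basement membrane proteoglycan perlecan (chromosome X, 2470460 to 2545427), went the other way. Zld cells held 486 and 460 CPM uninduced and 187 and 206 CPM induced, and Grh cells 268 and 301 CPM uninduced and 959 and 891 CPM induced. All 4 groups were separate, and the difference was -2.99 ± 0.11 log2 units (adjusted p = 4.53e-09). zormin, an immunoglobulin-domain protein of the muscle sarcomere, fell from 118 and 107 to 45.7 and 44.8 CPM with Zld and rose from 143 and 138 to 393 and 400 CPM with Grh. Its difference of -2.82 ± 0.09 had an adjusted p of 1.83e-09. CG7720 differed by -3.33 ± 0.25 (adjusted p = 2.02e-06) and RhoGAP1A, a GTPase-activating protein gene, by -2.96 ± 0.34 (adjusted p = 6.33e-05). CG1648 differed by -4.03 ± 0.49 (adjusted p = 7.56e-05), and by -0.27 (adjusted p = 0.822) after copper adjustment. CG40198 held 1 count in induced Zld cells and 1.19 and 1.31 CPM in induced Grh cells, and its difference had an adjusted p of 0.00539.

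Most genes with a called difference were called in 1 line: 1410 (15.8%) in the Zld line alone and 353 (3.95%) in the Grh line alone, with 90 (1.01%) called in neither. Another 63 (0.704%) rose in both lines but further with Zld, 77 (0.861%) rose further with Grh, 87 (0.973%) fell further with Zld and 4 (0.0447%) fell further with Grh. A change in 1 line alone without a called difference was found for 1782 genes (19.9%).

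Other genes moved the same way in both lines without a called difference: 312 (3.49%) rose in both and 175 (1.96%) fell in both. Together they numbered 487 (5.44%), or 295 without Grh uninduced replicate 2 and 323 without Grh induced replicate 1. Phk-3, a chemosensory-protein-family gene, rose from 0.382 and 0.356 to 89.3 and 68.6 CPM with Zld and from 0.622 and 0.285 to 34.6 and 42.2 CPM with Grh. The effects were 7.73 ± 0.28 and 6.47 ± 0.27, and the difference of 1.26 ± 0.77 had a 95% interval from -0.45 to 2.97 (adjusted p = 0.268). tsl, the torso-like gene of embryonic terminal patterning, had no read in any uninduced library and reached 1.36 and 1.76 CPM with Zld and 2.82 and 2.34 CPM with Grh, at least 14.1-fold and at least 32.4-fold higher. Snmp2, a membrane protein gene of the CD36 family, and Hn, which encodes phenylalanine hydroxylase, also had no read in uninduced Zld cells. Snmp2 reached 1.11 and 0.956 CPM with Zld and 3.11 and 3.99 CPM with Grh. Hn reached 0.803 and 0.368 CPM with Zld and 2.97 and 3.64 CPM with Grh. Sardh, a sarcosine dehydrogenase gene, reached 5.19 and 2.21 CPM with Zld and 0.395 and 0.619 CPM with Grh. Since a p above the threshold does not show equal effects, these genes are described by their levels.

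Among genes that fell in both lines was eater, a phagocytic receptor of macrophages, which fell from 35.3 and 26.8 to 12 and 12.3 CPM with Zld and from 15.1 and 15.2 to 5.88 and 6.88 CPM with Grh. The difference was -0.10 ± 0.20, with an interval from -0.53 to 0.33 (adjusted p = 0.767). The copper-adjusted difference was -1.34 (adjusted p = 9.31e-05). It contains a wild-type dose change of 1.23, from 17.8 CPM at the copper label of 100 to 40.1 CPM at 1000. The other 4 genes of this group by the naming rule were Oxp, CG32280, kon and Sgs1. Their differences were 0.09, -0.35, 0.63 and 1.44 with adjusted p-values of 0.93, 0.506, 0.356 and 0.241, and their copper-adjusted differences were 1.67, 2.34, 2.47 and 5.02, each called. Oxp missed the threshold in 7 leave-1-out fits of that difference, and Sgs1 stood at 9.13 without Grh induced replicate 1. Other genes' exons overlap 13.2% of CG32280.

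The list of early zygotic genes, which the embryo first transcribes and which include known Zld targets, had more members called on the Zld side than on the Grh side. In this and the lists that follow, shares of tested members are to be read against 11.2% higher and 14.6% lower over all 8945 genes. Copper-adjusted counts are to be read against 13% higher and 19.3% lower over 9170 genes. Of 54 members 27 were expressed enough to test. 9 (33.3%) had a higher Zld effect and 1 (3.7%) a lower one, with a list median of 1.34 against -0.04 for all genes. The 9 became 6 without Grh uninduced replicate 2. Dtg, a gene activated by the Dpp signal, rose from 0.574 and 0.297 to 105 and 95.8 CPM with Zld and from 0.436 and 0.57 to 2.97 and 3.03 CPM with Grh. Both induced groups exceeded their own controls, and the difference was 5.38 ± 0.52 (adjusted p = 1.24e-05). peb, the zinc-finger factor Hindsight of the amnioserosa, rose from 0.669 and 0.534 to 28.8 and 24.7 CPM with Zld and lay between 0.498 and 1.19 CPM in all Grh libraries (difference 5.77 ± 0.56, adjusted p = 1.27e-05). tld, the tolloid protease that releases Dpp from its inhibitor, rose from 0.478 and 0.237 to 19.7 and 20.7 CPM with Zld and from 0.249 and 0.428 to 1.09 and 0.756 CPM with Grh (difference 4.46 ± 0.65, adjusted p = 0.000321). tld starts just beyond tok, its paralog, on chromosome 3R (24749731 to 24753510), and both rose with Zld. The 1 member with a lower Zld effect was pyr, an FGF-like ligand gene, at -1.58 ± 0.32 (adjusted p = 0.00352), and it is outside the naming rule. It fell with Zld (-1.58, adjusted p = 0.000112) and had a Grh effect of -0.01 (adjusted p = 0.989). After copper adjustment 8 members were called higher and 3 lower, with a median of 1.11 against -0.08 for all genes. Of the 9, dpp, Bro and Ance were no longer called. The 8 included hry and brk at 1.15 and 1.84, with differences of 0.07 and 0.23 before adjustment. Their wild-type dose changes were -1.09 and -1.64. The 3 lower included slam and run, with wild-type dose changes of 1.46 and 4.08. All of these genes were named after their values were seen. The copper-adjusted values were 5.05 for Dtg (adjusted p = 0.000482), 4.63 for peb (adjusted p = 3.2e-05) and 2.96 for tld (adjusted p = 0.0447). Dtg missed the threshold without wild-type 100 replicate 2 (3.52, adjusted p = 0.109), and tld missed it in 8 of the 12 leave-1-out fits.

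Chitin genes, whose products build and remodel the polysaccharide of the cuticle, lay more on the Grh side. Of 27 listed 21 were tested, 7 (33.3%) were lower and 2 (9.52%) higher in the difference, with a median of -1.60. With the 4 members that had an empty group set to the limit of detection the median was -1.90. The 7 became 4 without Grh induced replicate 1. Cht5, a chitinase of the moulting fluid, rose from 0.124 and 0.0475 to 10.5 and 9.97 CPM with Grh, a ratio of 127 (43.2 to 620), and was between 0.119 and 0.37 CPM in the Zld libraries (adjusted p = 0.00213). In the Zld line 8 of the 21 rose and 2 fell, against 21.2% and 21.6% of all genes. In the Grh line 13 rose, against 12.3% of all genes. kkv, named after its values were seen, rose in both lines without a called difference (adjusted p = 0.323). Its mean went from 0.089 to 4.29 CPM with Zld and from 0.095 to 15.5 CPM with Grh. The chitin synthase Chs2 was called higher in the difference. It was at 4.20 and 3.02 CPM in induced Zld cells, at least 33.3-fold above uninduced ones, and had no read in induced Grh cells. Its call (adjusted p = 0.0109) rests on 2 counts in Grh uninduced replicate 2, and without that library the difference could not be fitted. The other member called higher was nesd at 0.35 ± 0.10 (adjusted p = 0.0187), named after its value was seen. Its copper-adjusted difference was -0.35 (adjusted p = 0.0142). After copper adjustment 7 chitin genes were called lower and 1 higher.

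Of 97 genes with the cuticle protein name prefixes only 15 were tested, 3 (20%) lower and 2 (13.3%) higher, near the shares of all genes, with a median of -0.06. The 3 lower were Cpr76Bc, Cpr64Ac and Cpr67B. Cpr64Ac was at 1.31 and 0.333 CPM before and 95 and 93.3 CPM after Grh induction, against 0.191 to 1.17 CPM in Zld cells (difference -5.33 ± 1.06, adjusted p = 0.00435). Without Zld uninduced replicate 2 its adjusted p was 0.117, and Cpr76Bc was then the only member still called lower. Cpr67B differed by -3.0 ± 0.90 (adjusted p = 0.0276), but missed the threshold in 5 leave-1-out fits and with DESeq2 (adjusted p = 0.0688). The 2 higher were Cpr92A, at 1.66 ± 0.51 (adjusted p = 0.0319), and Cpr, at 0.58 ± 0.10 (adjusted p = 0.000842), both named after their values were seen. Cpr shares the prefix but encodes cytochrome P450 reductase, not a cuticle protein.

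The wound response and pigmentation list holds enzymes that cross-link and colour cuticle and clots, and other genes such as msn, puc, kay and Jra. Of its 13 tested genes of 16, 4 (30.8%) were lower in the difference, with a median of -0.72. By edgeR's quasi-likelihood test and by DESeq2 0 were higher, with 4 at an unadjusted edgeR p under 0.05. Without Zld uninduced replicate 2 the 4 became 2. e, which encodes the beta-alanyl-dopamine synthase Ebony, rose from 0.809 and 0.333 to 44.7 and 44.0 CPM with Grh and from 0.0956 and 0.237 to 0.741 and 0.515 CPM with Zld (difference -4.60 ± 1.03, adjusted p = 0.00597). Without Zld uninduced replicate 2 its adjusted p was 0.204. Tg, the transglutaminase that cross-links haemolymph clots and cuticle, went from 10.6 and 8.93 to 57.3 and 62.8 CPM with Grh and from 12.2 and 10.8 to 17.3 and 19.0 CPM with Zld. Both effects were rises, and the difference was -1.98 ± 0.16 (adjusted p = 3.34e-06). Ddc, dopa decarboxylase, rose from 0.187 and 0.19 to 3.81 and 3.44 CPM with Grh (difference -2.86 ± 0.87, adjusted p = 0.0289). That call was lost in 6 leave-1-out fits and after copper adjustment (adjusted p = 0.0749). The 4th member was stw, the laccase straw, at -0.82 ± 0.13 (adjusted p = 0.000472), outside the naming rule. In the Grh line itself 9 of the 13 genes rose, against 12.3% of all genes. In the Zld line 7 of the 13 rose and 1 fell, against 21.2% and 21.6% of all genes. Pu, Cad96Ca and Duox rose in both lines without a called difference, and were named after their values were seen. Their effects were 2.99, 5.69 and 3.49 with Zld and 3.71, 6.90 and 2.72 with Grh. The genes msn, puc, kay and y, also named after their values were seen, were not called in the Grh line. Their Grh effects were 0.09, 0.11, -0.06 and -1.53. After copper adjustment 3 members of the list were called higher, y, puc and kay, and 6 lower, with a median of -1.03.

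Of 25 septate junction genes, which form the paracellular barrier, 23 were tested, and 9 (39.1%) were lower and 1 (4.35%) higher in the difference (median -0.29). The 9 became 6 without Grh induced replicate 2. Nrg, the cell adhesion protein Neuroglian, was at 6.88 and 7.18 CPM in uninduced and 11.3 and 10.7 CPM in induced Zld cells. In Grh cells it was at 23.2 and 20.3 CPM and rose to 199 and 189 CPM, and the difference was -2.55 ± 0.16 (adjusted p = 5.25e-07). Fas3, an immunoglobulin-domain adhesion protein, rose from 2.30 and 2.85 to 20.5 and 15.5 CPM with Grh and lay between 0.494 and 0.809 CPM in Zld cells (difference -2.78 ± 0.58, adjusted p = 0.0039). bark, a transmembrane protein of tricellular junctions, rose from 0.871 and 0.428 to 7.12 and 7.36 CPM with Grh (difference -3.92 ± 0.98, adjusted p = 0.0109). The remaining 6 lower members were cora, Nrx-IV, Atpalpha, kune, pck and cold, chosen after their values were seen. Their Grh effects lay between -0.02 and 0.16 and their Zld effects between -0.61 and -0.29. Tsp2A, the 1 higher member, differed by 1.29 ± 0.41 (adjusted p = 0.0366). It missed the threshold in 5 leave-1-out fits, with DESeq2 (adjusted p = 0.157) and after copper adjustment (adjusted p = 0.871).

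Among 19 polarity and adherens junction genes 6 (31.6%) were lower and 1 (5.26%) higher (median -0.22), and 3 were lower without Grh uninduced replicate 2. crb, the apical determinant Crumbs, was at 25.8 and 28.8 CPM uninduced and 32.3 and 32.4 CPM induced in the Zld line. In the Grh line it rose from 21.3 and 23 to 59.5 and 56.4 CPM (difference -1.17 ± 0.13, adjusted p = 4.08e-05). The scaffold genes cno and dlg1 differed by -0.64 ± 0.10 (adjusted p = 0.000429) and -0.51 ± 0.09 (adjusted p = 0.00105). The tight-junction-like scaffold gene pyd, the 1 higher member, differed by 0.55 ± 0.12 (adjusted p = 0.00502). With Zld and with Grh, cno changed by -0.25 and 0.39, dlg1 by -0.70 and -0.19, and pyd by 1.41 and 0.86. After copper adjustment cno stood at -0.35 (adjusted p = 0.0192, missed in 7 leave-1-out fits), dlg1 at 0.00 (adjusted p = 0.988) and pyd at -0.06 (adjusted p = 0.743).

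All 22 listed macrophage and basement membrane genes were tested, and 12 (54.5%) were lower and 2 (9.09%) higher in the difference, with a median of -0.44. In the Zld line 15 fell and 2 rose, against 21.6% and 21.2% of all genes. In the Grh line 3 fell and 3 rose, against 5.72% and 12.3% of all genes. Nplp2, a neuropeptide-like precursor abundant in haemocytes, fell from 1344 and 959 to 120 and 173 CPM with Zld. It was at 1287 and 1098 CPM before and 1211 and 1569 CPM after Grh induction, so induced Zld cells alone stood low (difference -3.21 ± 0.32, adjusted p = 0.000824). vkg, a collagen IV chain, fell from 104 and 125 to 50.6 and 50.5 CPM with Zld and rose from 51.7 and 57.7 to 74.3 and 64.1 CPM with Grh (difference -1.55 ± 0.16, adjusted p = 5.01e-05). Its copper-adjusted difference was -0.10 (adjusted p = 0.715). The 2 higher members were Ndg, the basement membrane protein nidogen, and Tig, tiggrin, the latter named after its value was seen. Ndg differed by 3.23 ± 1.06 (adjusted p = 0.0438) and missed the threshold in 6 leave-1-out fits. Tig differed by 0.83 ± 0.10 (adjusted p = 5.36e-05), and by -0.12 (adjusted p = 0.387) after copper adjustment. After copper adjustment 14 genes of the list were lower and 1 higher, with a median of -0.83. These were not all the same genes: vkg, Col4a1 and Ppn were no longer called lower. Hml, eater, LanB1, SPARC and He were called lower only after adjustment. Hml went from -0.06 to -1.93, with a wild-type dose change of 1.86. Of these genes all but vkg and eater were named after their values were seen. In wild-type cells 13 of the 22 were higher and 5 lower at the copper label of 1000 than at 100, against 26.3% and 23.3% of 9170 genes.

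A pair of cell adhesion genes for myoblast fusion moved to opposite sides. kirre and rst encode related immunoglobulin-domain proteins, and rst lies within the span of kirre on chromosome X (2950399 to 2973834 within 2740384 to 3134532). kirre rose from 1.18 and 1.09 to 10.5 and 11.2 CPM with Grh and stayed between 1.30 and 1.91 CPM in the Zld libraries (difference -3.34 ± 0.38, adjusted p = 5.03e-05). rst rose from 8.41 and 10.1 to 101 and 114 CPM with Zld and from 3.17 and 4.32 to 8.65 and 8.46 CPM with Grh (difference 2.33 ± 0.22, adjusted p = 9.02e-06). Copper-adjusted differences were -1.67 for kirre (adjusted p = 0.0192) and 3.78 for rst (adjusted p = 8.54e-08), and that of kirre missed the threshold in 4 of the 12 leave-1-out fits (adjusted p = 0.0513 to 0.163). Of 20 tested muscle genes of 27, 6 (30%) were lower and 2 (10%) higher, with a median of -0.18. The other higher member was Mlp60A, a muscle LIM protein, at 5.42 ± 0.99 (adjusted p = 0.00174), with an adjusted p of 0.0702 without Grh uninduced replicate 2 and a difference of 9.67 without Grh induced replicate 1.

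All 25 listed DNA replication genes were tested, and 10 (40%) were lower in the difference, with a median of -0.27, and 4 were lower without Zld induced replicate 1. By edgeR and by DESeq2 0 were higher, with 2 at an unadjusted edgeR p under 0.05. The list also covers cell cycle genes, named here after their values were seen. Of these, CycE was called lower, and stg, CycA, CycB, Cdk1, polo and aurA were not called. Counts within each line are to be read against falls of 21.6% of all genes in the Zld line and 5.72% in the Grh line. In the Zld line 22 fell, with a median of -0.48, and in the Grh line 12 were called lower, with a median of -0.20, of which 0 were called without Grh induced replicate 1. Orc2, a subunit of the origin recognition complex, fell from 34.5 and 34.9 to 13.8 and 14.4 CPM with Zld and from 32.1 and 31.5 to 22.7 and 24.5 CPM with Grh (difference -0.89 ± 0.13, adjusted p = 0.000279). PCNA, the polymerase clamp, fell from 339 and 349 to 197 and 227 CPM with Zld and was at 313 and 348 CPM before and 307 and 287 CPM after Grh induction (difference -0.56 ± 0.11, adjusted p = 0.00289). After copper adjustment 19 of the 25 were lower. In wild-type cells 17 of the 25 were higher at the copper label of 1000 than at 100, against 26.3% of 9170 genes. By comparison, of 87 tested cytosolic ribosomal protein genes of 93, 1 was higher (RpS19b, 1.09 ± 0.19, adjusted p = 0.00105) and 1 lower (RpS29, -0.40 ± 0.11, adjusted p = 0.0191), with a median of 0.01. RpS29 missed the threshold in 4 leave-1-out fits. After copper adjustment 19 of the 87 ribosomal genes were lower and 3 higher, beside 19.3% lower and 13% higher over all 9170 genes.

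Metal, glutathione and chaperone genes are known to respond to copper stress, and of each list more members were called higher than lower in the difference. MtnE, a metallothionein that binds copper, rose from 0.287 and 0.356 to 71.2 and 80.7 CPM in the Zld line and from 0.249 and 0.095 to 0.741 and 1.10 CPM in the Grh line. In wild-type cells its mean was 0.175 CPM at the copper label of 100 and 83.3 CPM at 1000. The difference of 5.38 ± 0.92 (adjusted p = 0.00103) turned to -3.64 (adjusted p = 0.00468) after copper adjustment. Of 14 tested metal response genes of 16, 5 (35.7%) were higher (median 0.28; by edgeR and by DESeq2 0 were lower, 1 at an unadjusted edgeR p under 0.05), and after adjustment 2 were higher and 5 lower (median -0.53). The 5 were MtnE, MtnD, ZnT35C, ATP7 and MTF-1, the last pair named after their values were seen. MtnD and ZnT35C, a metallothionein and a zinc transporter gene, held 3 counts or fewer in an uninduced group, and without Grh uninduced replicate 1 the adjusted p of MtnD was 0.903. ATP7, a copper-transporting ATPase, stood at 0.48 before (adjusted p = 0.00439) and after (adjusted p = 0.00532) the adjustment, and MTF-1, the metal-responsive factor, at 0.41 (adjusted p = 0.00512) and 0.46 (adjusted p = 0.00147).

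Among glutathione and oxidative stress genes 40 of 44 were tested, 21 (52.5%) were higher and 6 (15%) lower (median 0.57), and 3 were lower without Grh induced replicate 1. GstD5, which adjoins GstD6 and belongs to a family of close paralogs, rose from 13.3 and 17.9 to 104 and 76.7 CPM in the Zld line and was at 10.9 and 11.8 CPM before and 7.12 and 10.3 CPM after Grh induction. Its difference was 2.91 ± 0.34 (adjusted p = 0.000662), and -0.10 (adjusted p = 0.874) after copper adjustment. GstE2 and GstS1, also glutathione transferase genes, each differed by 2.50, and by 1.80 (adjusted p = 0.000228) and 0.95 (adjusted p = 0.027) after adjustment, and GstS1 missed the threshold in 5 leave-1-out fits. After adjustment 13 members of the list were higher and 9 lower (median -0.08). GstD7 and GstO3 turned from called higher, at 2.34 and 0.64, to called lower, at -1.96 and -0.92. Both were named after their values were seen. Of 18 tested chaperone genes of 19, 7 (38.9%) were higher (median 0.21), and 3 were higher without Grh induced replicate 1. Hsc70-3, the endoplasmic reticulum chaperone BiP, was at 2049 and 2238 CPM before and 2343 and 2235 CPM after Zld induction. In the Grh line it fell from 2096 and 2391 to 1551 and 1410 CPM, giving a difference of 0.68 ± 0.14 (adjusted p = 0.00325) and a copper-adjusted one of 1.14 (adjusted p = 1.99e-05). After copper adjustment 3 chaperone genes were higher and 11 lower (median -1.50). Hsp70Bc, a heat shock gene with near-identical copies that was named after its value was seen, had effects of 0.13 with Zld and 0.16 with Grh, a wild-type dose change of 3.50 and a copper-adjusted difference of -3.55, so that call came from the wild-type libraries.

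**Figure D3:**
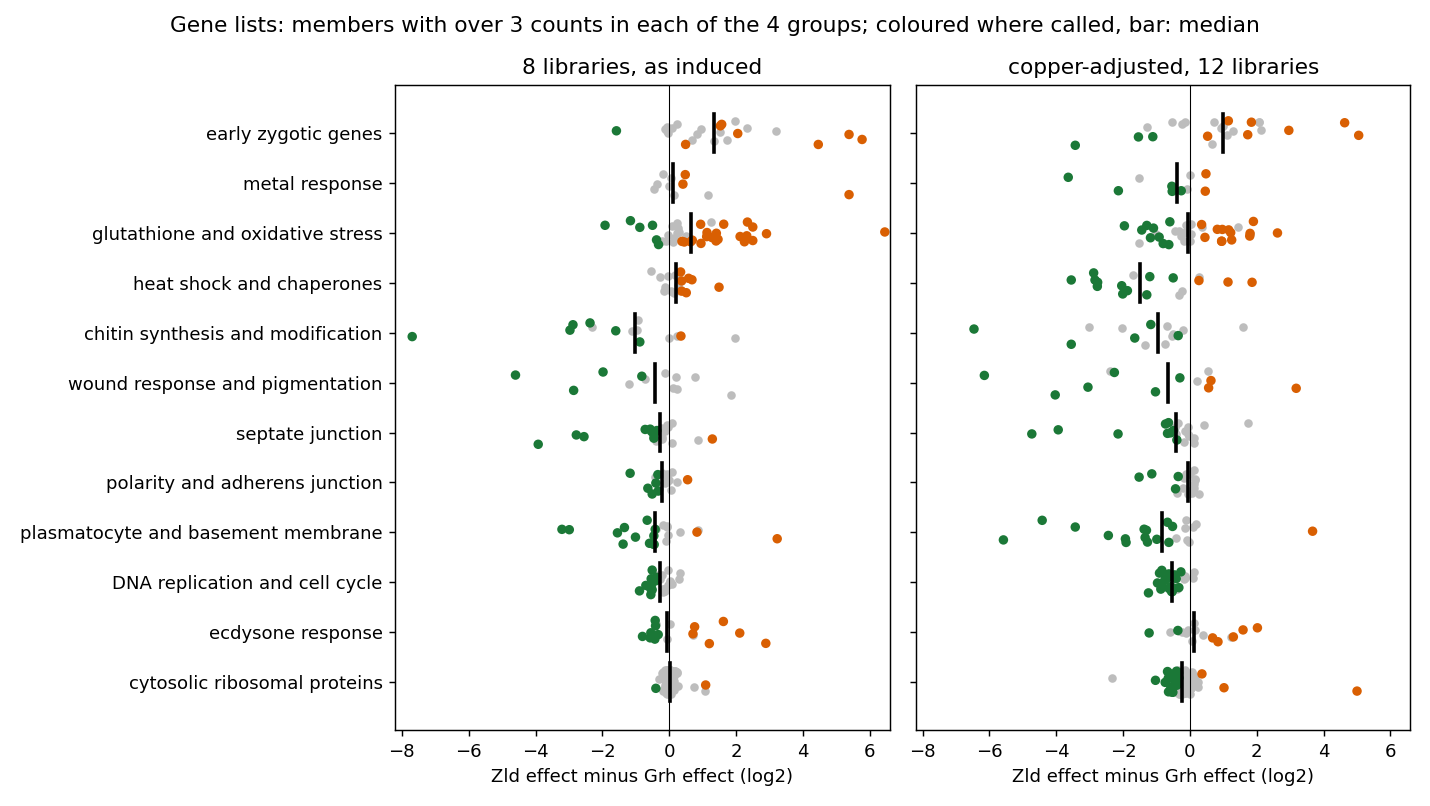
Difference between the Zld effect and the Grh effect (log2) for members of 12 gene lists with over 3 counts in each of the 4 groups, from the 8 libraries on the left and after copper adjustment on the right; coloured points were called higher (orange) or lower (green) at an adjusted p under 0.05, and bars mark medians of the points drawn. The early zygotic genes Dtg, peb and tld lie to the right in both panels, and the chaperone median moves from above 0 to below it.

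Ecdysone response genes divided: of 18 tested of 22, 6 (33.3%) were higher and 7 (38.9%) lower (median -0.02), and 4 were lower without Grh induced replicate 1. Hr38, an orphan nuclear receptor gene, rose from 0.574 and 0.771 to 11.2 and 8.68 CPM with Zld and was at 0.685 and 0.618 CPM before and 0.741 and 1.86 CPM after Grh induction (difference 2.89 ± 0.63, adjusted p = 0.00517). Lower members included EcR, the ecdysone receptor gene, at -0.57 ± 0.11 (adjusted p = 0.0021), Eip75B at -0.43 ± 0.09 (adjusted p = 0.00333) and Eip63E, named after their values were seen. After copper adjustment EcR and Eip75B turned to called higher, at 1.30 and 0.68, and Eip63E stayed lower at -0.36. The list then had 5 members higher and 2 lower. The nuclear receptor genes Hr4 and Eip78C differed by 2.11 ± 0.37 (adjusted p = 0.0013) and 1.62 ± 0.34 (adjusted p = 0.00413). Their copper-adjusted differences were 0.07 (adjusted p = 0.923) and -0.60 (adjusted p = 0.238), against 2.02 (adjusted p = 0.0283) for Hr38, which missed the threshold in 7 leave-1-out fits. Of 8 tested lamellocyte and crystal cell genes of 10, 3 were higher, peb, the filamin gene cher (1.19 ± 0.11, adjusted p = 7.84e-06) and the integrin gene Itgbn (2.03 ± 0.18, adjusted p = 6.1e-06), and 1 lower, the integrin gene mys (-0.39 ± 0.09, adjusted p = 0.00716), named after its value was seen. Other genes' exons overlap 18.8% of Itgbn, whose copper-adjusted difference was 0.03 (adjusted p = 0.935). Of the 2 lamellocyte markers, atilla was at most 0.0475 CPM in the other groups and 28.1 to 31.7 CPM in induced Grh cells, while PPO3 was at 31.3 to 32.3 CPM in uninduced and 23.2 to 29 CPM in induced Grh cells.

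The remaining lists held at most 6 calls each. Of 16 tested germline genes of 18, 4 (25%) were higher (median 0.51), bam, fs(1)Yb, zuc and shu, of which all but bam were named after their values were seen, and 2 were higher without Grh uninduced replicate 2. bam, the germline differentiation factor, rose from 1.15 and 0.89 to 3.64 and 2.65 CPM with Zld (difference 2.21 ± 0.53, adjusted p = 0.00891), with 11.5% of its exons shared with other genes. The list also covers the ovarian soma. After copper adjustment bam stood at 1.70 (adjusted p = 0.0281) and shu at 0.43 (adjusted p = 0.0154). zuc was then at -0.16 (adjusted p = 0.493), and fs(1)Yb turned from 0.52 to -0.37 (adjusted p = 0.0112). Of 16 tested mesoderm genes of 19, 5 were lower and 1 higher (median -0.14), and 3 were lower without Grh induced replicate 1. They were Mef2, fog, smog, how and pyr, with NetB higher, all named after their values were seen. After copper adjustment NetB, Mef2 and how were no longer called, at 0.22, -0.21 and -0.21. Of 10 tested apoptosis genes of 12, 3 were higher, Corp, Dronc and Drice. Their copper-adjusted differences were 2.18 (adjusted p = 0.0965), 0.47 (adjusted p = 0.00374) and -0.02 (adjusted p = 0.895). For 10 of 15 neuronal, 3 of 10 fat body and 4 of 14 antimicrobial peptide genes that could be tested, edgeR and DESeq2 called 0 differences, 1 neuronal and 1 fat body gene were lower at an unadjusted edgeR p under 0.05, and the medians were -0.02, -0.75 and -0.12.

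Subtracting the wild-type copper dose changed many calls. The copper-adjusted difference was called for 2963 of 9170 genes (32.3%), 1196 (13%) higher and 1767 (19.3%) lower. At least 2-fold, 436 (4.75%) were higher and 595 (6.49%) lower, together 1031 (11.2%). With library size as the sole scaling the calls were 1471 higher and 1354 lower. In wild-type cells 4546 genes (49.6%) differed between the copper labels of 1000 and 100, 2410 (26.3%) higher and 2136 (23.3%) lower at 1000. Of the 1101 (12%) that differed at least 2-fold, 724 (7.9%) were higher and 377 (4.11%) lower. The dose change was not a simple increase over untreated cells: for 653 (59.3%) of those 1101 genes the untreated wild-type level was nearer to that at 1000 than to that at 100. Among the 424 genes on the Zld side, 153 (36.1%) were at least 2-fold higher at 1000 in wild-type cells, against 678 (7.58%) of the 8945 genes. Among the 374 genes on the Grh side, 70 (18.7%) were at least 2-fold lower at 1000, against 333 (3.72%) of all. After adjustment 213 of the 424 were called higher and 17 lower, and of the 374 on the Grh side 287 were called lower and 5 higher. These last counts share libraries with the choice of the genes and are descriptive. Nrg stood at -3.94 (adjusted p = 3.31e-10), Tg at -3.05 (adjusted p = 1.35e-08), trol at -1.91 (adjusted p = 8.5e-09) and crb at -1.14 (adjusted p = 2.3e-05).

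**Figure D4:**
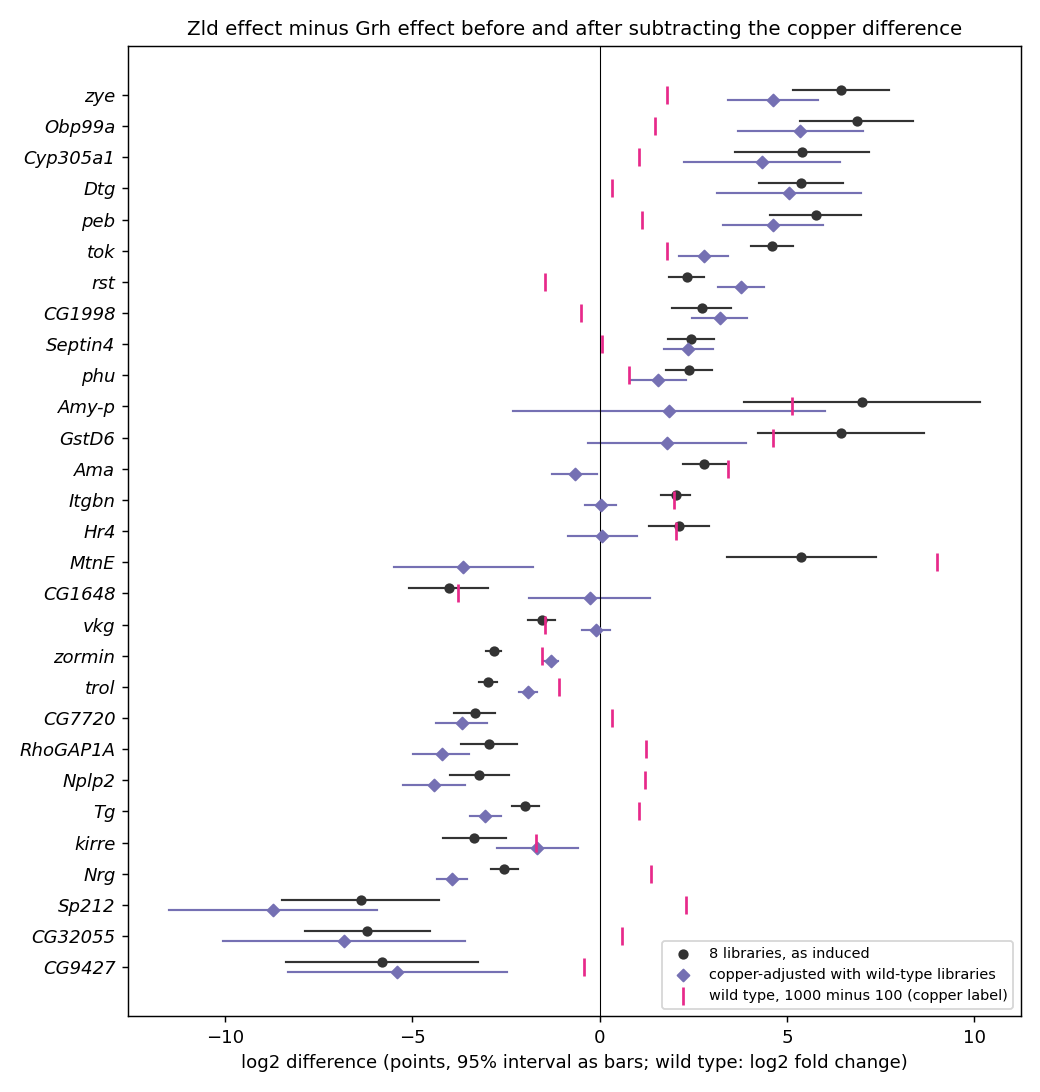
Difference between the Zld effect and the Grh effect for 29 genes in log2 units, from the 8 libraries (black circles) and after subtraction of the wild-type copper dose change (purple diamonds), with 95% intervals as bars and the wild-type change itself as a pink tick. zye and Obp99a stay right of 0 and Nrg and trol left of it, while Itgbn, Hr4, CG1648 and vkg move to near 0 and MtnE crosses from 5.38 to -3.64.

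By the choice of these genes, 412 of the 424 were called higher in the Zld line, with 26 higher and 34 lower in the Grh line and median effects of 2.01 and -0.16. Of the 374, 292 were called higher in the Grh line and 172 lower in the Zld line, with median effects of 1.49 and -0.49.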

How the data were processed

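Raw gene counts were deposited by the authors in 3 tables of 17609 genes; per the submitters' processing notes, HISAT2 2.1.0, featureCounts (Subread 2.0), DESeq2 and the dm6 build were used. Gene length, in another column of the deposited tables, was not used for the values. Per the labels' protocols, libraries were polyA-selected TruSeq RNA v2, which does not mark strand. Counts of the 8 libraries were joined by gene identifier and tested with edgeR 4.0.16 (R 4.3.3): TMM scaling, filterByExpr, robust quasi-likelihood F test, 4 residual degrees of freedom. Tests were two-sided, and p-values were adjusted by Benjamini-Hochberg across the whole table of tested genes, called at an adjusted p under 0.05. The copper-adjusted difference was fitted on 12 libraries (6 residual degrees of freedom). The fit was tested on simulated counts. CPM are counts per 1000000 counted reads. Values after ± are SEs, with n = 2 libraries a group. A fitted difference is printed where each group held over 3 counts. Otherwise levels, a lower bound (3 counts over the group) or a count ratio with a 95% Clopper-Pearson interval (counting error only) are given. Coordinates come from the Ensembl BDGP6 annotation. Members and lists were chosen with earlier results of these data known. Named genes were the introduced genes, the 10 highest and 10 lowest at least 2-fold by mean log2 CPM (prior count 2), 5 per opposite or shared direction, and up to 4 per list by size of difference. Alternatives were other scalings, filters and DESeq2 1.42.0, a replicate block, all 18 libraries, leaving out each library, and wild-type controls.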

Additional observations from a re-analysis of the deposited data

Results flagged for a closer look

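The difference minus the wild-type copper dose change was called for 2963 genes (edgeR's quasi-likelihood test, 12 libraries). A call there does not by itself show that the Zld and Grh effects differ, since it can come from the wild-type change alone. The genes named for the largest or for opposite effects that held over 3 counts in all 6 groups, and were called in the same direction with and without the subtraction, had these values. On the Zld side the copper-adjusted log2 differences were 6.12 for zld, 5.36 for Obp99a, 4.63 for zye, 4.33 for Cyp305a1, 3.21 for CG1998, 2.78 for tok, 2.37 for Septin4 and 1.57 for phu. On the Grh side they were -8.71 for Sp212, -6.83 for CG32055, -5.40 for CG9427, -4.22 for RhoGAP1A, -3.68 for CG7720 and -1.30 for zormin. In leave-1-out fits the copper-adjusted call for zld was lost in 9 of 12 (adjusted p = 0.052 to 0.141), with a value of up to 9.38. Cyp305a1 lost it without wild-type 100 replicate 2 (adjusted p = 0.0522) and stood at 9.33 without Zld uninduced replicate 2. CG32055 lost it without wild-type 1000 replicate 2 (-4.91, adjusted p = 0.227) and stood at -11.23 without wild-type 100 replicate 1. CG9427 lost it without wild-type 1000 replicate 1 (-3.81, adjusted p = 0.142). Groups of 2 libraries are too small for a test of single outlying samples.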

How the results depend on the processing

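The difference was called for 2316 genes in the main analysis, 2315 with DESeq2 size factors, 1748 with DESeq2's own test, 2589 without a filter, 2330 with a 1 CPM filter, 2155 with all 18 libraries and 2296 with the introduced and metallothionein genes out of the library sizes. With wild type at the same copper number as control in place of each line's own uninduced cells it was called for 5017 genes. That setting also turned the sign of 9 named genes: CG32280 to 3.31, MtnE to -2.60, Hsp60A to -0.04, Tsp2A to -0.33, pyd to -0.00, dlg1 to 0.12, vkg to 1.01, Eip78C to -0.06 and Drice to -0.02; the cause was not tested. Leaving out 1 library, whose partner is then assumed to vary like the other groups, gave 1440 to 2695 genes for the difference, 2455 to 3774 for the Zld line, 897 to 2086 for the Grh line, 2312 to 3231 copper-adjusted and 3458 to 5047 for the wild-type dose. It gave 111 to 320 genes in opposite and 295 to 592 in shared directions, and turned the sign of Oxp (-0.36 to 0.45, also -0.07), eater (-0.27 to 0.06) and CG32280 (-0.66 to 0.13), which were not called in the main analysis. Of the other named-gene values outside leave-1-out fits, 550 kept direction and side of the threshold, 22 missed it and 3 passed it; in leave-1-out fits 521 kept both and 59 missed it. The copper-adjusted calls were 1368 higher and 1542 lower with DESeq2 size factors and 1197 and 993 with all 18 libraries. Replicate numbers are shared only as numbers: correlations of same-numbered deviations lay between -0.28 and 0.194. A replicate block gave 1948 genes for the difference, 3430 for the Zld line and 1324 for the Grh line. Promoter motifs were not run. With 2 libraries a group and 3 counts at 0.143 to 0.287 CPM, differences of genes near 0 in an uninduced group rest on few reads.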
